A study of Mus musculus with 4 samples.

Results

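Open chromatin mostly takes the form of short intervals, but a few intervals are broad enough to hold a whole promoter and its flanks. Broad open regions of immature fetal γδ thymocytes were defined by merging the peaks of 4 libraries that overlapped by 1 bp or more on chromosomes 1 to 19 and X. A merged region was kept when it was 1000 bp or wider and overlapped a peak of all 4 libraries. This gave 563 broad regions, which was 0.716% of the 78650 regions called in all 4 libraries (shared regions) and 0.328% of all 171490 merged regions. They held 650123 bp, or 2.55% of the base pairs of the shared regions. Another 3 regions reached 1000 bp without a peak in every library and were not kept. Width and the presence of peaks chose the regions, so these values are descriptions.

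The libraries came from an Omni-ATAC experiment, in which Tn5 transposase cuts and tags accessible DNA, on γδ T cells sorted from fetal thymus as CD4- CD8- TCRγδ+ CD3ε+ CD24+ CD45RBlo cells. The knockout group (KO, 2 libraries) was Maf fl/fl with Il7r-Cre, and the control group (WT, 2 libraries) was Maf+/+ with the same Il7r-Cre, so both genotypes carried the Cre. Fetuses of both genotypes were taken at embryonic day 17 to 18, were on a C57BL/6 background after 5 backcross generations, and were pooled before sorting 15 to 17 (in units of 1000) cells per library. Il7r-Cre acts in cells that express the IL-7 receptor gene or descend from such cells, which includes lymphoid lineages besides γδ T cells. The study compared these genotypes to examine how loss of c-Maf, the transcription factor encoded by Maf, changes accessibility in γδ T cells that go on to produce IL-17. Whether 2 libraries with the same genotype were made from different pools is not in the labels, and their spread may therefore be technical.

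As background, most vertebrate promoters of widely expressed genes lie in CpG islands, stretches rich in the CG dinucleotide that tend to be free of DNA methylation. Lineage genes are more often governed by distal enhancers, which are short open sites bound by cell-type transcription factors. In fetal γδ thymocytes the factors Sox13 and c-Maf act in the program that leads to IL-17 production.

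Sequences at gene starts show the kinds of promoter that broad regions did and did not cover. Each window is RefSeq sequence of build GRCm38.p6, 300 bases long from 250 before to 50 after the start, printed 5′ to 3′ on the gene's own strand with every CpG in capitals. Elf1 (an ETS-family factor, chr14:79480944-79481243, plus strand) and Myb (a factor of immature lymphoid cells, chr10:21160935-21161234, minus strand) had the widest broad regions among the T cell gene lists that also had an entry in the promoter table. H2ac18 (chr3:96245247-96245546, plus strand) and H3c14 (chr3:96246435-96246734, plus strand) are histone genes whose starts lie in a single 2043 bp region, and were picked after its width was seen. Cd3e (chr9:45009562-45009861, minus strand), which encodes a chain of the CD3 complex, had a narrower region of 656 bp. Il17a (chr1:20730655-20730954, plus strand), which encodes the cytokine IL-17A, had no shared region.
Elf1: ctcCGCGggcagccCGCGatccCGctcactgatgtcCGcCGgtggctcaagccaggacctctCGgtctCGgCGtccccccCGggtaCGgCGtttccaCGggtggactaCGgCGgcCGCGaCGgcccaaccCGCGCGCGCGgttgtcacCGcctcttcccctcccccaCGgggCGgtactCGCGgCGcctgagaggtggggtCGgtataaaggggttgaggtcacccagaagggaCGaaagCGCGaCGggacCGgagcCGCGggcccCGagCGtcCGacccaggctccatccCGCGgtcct
Myb: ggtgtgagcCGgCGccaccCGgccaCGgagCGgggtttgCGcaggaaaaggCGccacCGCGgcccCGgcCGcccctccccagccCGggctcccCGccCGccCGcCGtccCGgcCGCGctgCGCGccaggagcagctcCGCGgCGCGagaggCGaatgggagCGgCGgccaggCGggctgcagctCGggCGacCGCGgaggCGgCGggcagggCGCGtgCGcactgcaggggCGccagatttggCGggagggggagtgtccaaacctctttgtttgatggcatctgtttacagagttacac
H2ac18: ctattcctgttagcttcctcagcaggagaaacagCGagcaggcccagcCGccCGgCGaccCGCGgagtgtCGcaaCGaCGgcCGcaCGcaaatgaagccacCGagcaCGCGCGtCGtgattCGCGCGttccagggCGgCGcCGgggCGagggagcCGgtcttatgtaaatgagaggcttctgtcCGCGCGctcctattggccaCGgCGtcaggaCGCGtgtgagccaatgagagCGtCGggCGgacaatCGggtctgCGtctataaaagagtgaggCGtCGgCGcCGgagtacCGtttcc
H3c14: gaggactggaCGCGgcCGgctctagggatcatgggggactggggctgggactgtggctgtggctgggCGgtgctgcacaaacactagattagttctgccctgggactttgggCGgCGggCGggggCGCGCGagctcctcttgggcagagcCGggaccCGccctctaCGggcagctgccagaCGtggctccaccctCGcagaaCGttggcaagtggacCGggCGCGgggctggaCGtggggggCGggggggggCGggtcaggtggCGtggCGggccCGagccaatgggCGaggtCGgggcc
Cd3e: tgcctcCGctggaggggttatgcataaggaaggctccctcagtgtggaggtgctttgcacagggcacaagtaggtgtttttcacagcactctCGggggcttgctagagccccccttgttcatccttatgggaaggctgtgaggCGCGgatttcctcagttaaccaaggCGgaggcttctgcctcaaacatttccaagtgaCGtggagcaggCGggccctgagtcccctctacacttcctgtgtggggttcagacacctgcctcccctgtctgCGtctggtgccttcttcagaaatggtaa
Il17a: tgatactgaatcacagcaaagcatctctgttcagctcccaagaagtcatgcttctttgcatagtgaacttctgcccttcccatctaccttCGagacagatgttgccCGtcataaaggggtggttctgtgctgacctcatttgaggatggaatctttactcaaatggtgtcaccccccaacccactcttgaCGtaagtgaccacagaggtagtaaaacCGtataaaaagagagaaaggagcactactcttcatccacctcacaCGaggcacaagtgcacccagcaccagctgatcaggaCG
The windows of Elf1, Myb, H2ac18 and H3c14 held 43, 40, 41 and 27 CpG. Those of Cd3e and Il17a, outside broad regions, held 8 and 6 CpG. A CpG-rich start did not always lie inside a shared region. The window of Sox13 held 40 CpG at 73.3% GC, and no shared region held its start. Sox13 was still among the 10 γδ T cell markers counted below with a peak at a gene start. That count did not require a shared region to hold this start. The window of Tcf7 held 17 CpG at 64.3% GC in a narrower region. The GC content was 73% at Elf1, 75% at Myb, 64.7% at H2ac18 and 72.7% at H3c14, against 56.7% at Cd3e and 48.3% at Il17a.

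The libraries differed in how many wide peaks they held, and this bears on every width given here. KO libraries 1 and 2 held 130935 and 120141 peaks, of which 113 and 171 were 1000 bp or wider. WT libraries 1 and 2 held 102718 and 132179 peaks, of which 83 and 255 were 1000 bp or wider. WT library 2 thus had the most wide peaks and WT library 1 the fewest, and without WT library 2 the rule kept 366 regions. The labelled cell type was checked at gene starts, where either gene end stood in for genes absent from the promoter table. All 10 γδ T cell markers had a peak there in every library. Of 6 B cell markers, 2 and 3 had one in the KO libraries, against 2 and 3 in the WT libraries, and Pax5 and Cd22 had none in any library. Of 8 myeloid markers, 3 and 3 had one in the KO libraries, against 2 and 3 in the WT libraries. Of 10 markers of thymic epithelium and stroma, 3 and 4 had a peak in the KO libraries, against 4 and 4 in the WT libraries. Of 7 markers of αβ thymocytes, 6 had a peak at a gene start in every library. Trac, the constant gene of the TCR α chain, had none there, but a shared region lay inside the gene. The significance of its highest peak (−log10 q) was 49.5 and 47.0 in the KO libraries, against 40.1 and 70.4 in the WT libraries. The only shared region of the γδ marker Trdc lay outside the gene, next to an end. Its −log10 q was 13.6 and 6.87 in the KO libraries, against 9.57 and 13.9 in the WT libraries. At the targeted gene, the region beside Maf had a −log10 q (the significance of its highest peak) of 2.20 and 6.80 in the KO libraries, against 89.9 and 141 in the WT libraries, so the libraries differed in the way of their labels. An open promoter does not show that a gene is transcribed, and the part that other cells had in the broad regions was not tested.

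Most broad regions were only just past the width limit. Their median width was 1103 bp and their quartiles were 1043 and 1206 bp, against a median of 272 bp for the 78087 narrower shared regions. A width under 1100 bp was found in 275 regions (48.8%), while 25 were at least 1500 but under 2000 bp and 3 were 2000 bp or wider. Just inside the limit, at 1000 bp, lay regions at Rnf149, at Myo3a and on chromosome 3 with no gene within 1 kb. Regions at Scarna2, Fam110b and Sidt2 lay just outside, at 999 bp. The limit cut through a continuous range, as 6 regions were 1000 bp and 7 were 999 bp wide.

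A merged region can be wider than the open chromatin of any single library. The bases covered by peaks of all 4 libraries, here called the core, had a median of 725 bp, or 64.3% of the region's width. In 455 regions (80.8%) the core was 500 bp or more, and in 57 (10.1%) it was 1000 bp or more. In 28 regions each library had a peak of 1000 bp or more of its own, while in 197 no library did. A core of 0 bp was found in 3 regions, at Maf, at Stam2 and in the neighbouring genes Nme9 and Armc8.

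Within the libraries, peaks of KO libraries 1 and 2 covered a median of 930 and 970 bp of a broad region, against 876 and 1014 bp in WT libraries 1 and 2. Both KO values lay between the WT values. A single peak spanned the covered bases in 203 (36.1%) and 287 (51.0%) of the regions in the KO libraries, against 162 (28.8%) and 347 (61.6%) in the WT libraries. In the other regions the covered bases were split over several peaks.

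Broad regions were also among the stronger peaks of each library. The deposited peak lists score each peak by −log10 q, the significance of its summit within that library, and by a fold enrichment over local background. The median of a region's highest −log10 q was 58.6 and 64.1 in the KO libraries, against 43.9 and 79.5 in the WT libraries. Narrower shared regions had medians of 18.6 and 23.2 in the KO libraries, against 13.2 and 27.2 in the WT libraries. The median fold enrichment of broad regions was 14.7 and 14.9 in the KO libraries, against 12.3 and 14.6 in the WT libraries. Shared regions just under the limit ranked about as high by −log10 q among the peaks of each library. At 800 to 999 bp the median percentiles were 89.9 and 88.4 in the KO libraries, against 87.2 and 89.8 in WT. At 1000 to under 1200 bp they were 89.9 and 87.7 in KO, against 86.6 and 89.3 in WT. Each value is the highest over the peaks merged into a region, so the rule can favour wide regions. Width did not make a region strong in every case: 13 and 23 broad regions ranked below the 50th percentile of peaks in the KO libraries, against 36 and 15 in the WT libraries.

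Broad regions lay mostly at gene starts. A start, or for genes absent from the promoter table either end of the gene, lay within 1 kb of 437 of the 563 regions (77.6%, exact Clopper-Pearson 95% interval 73.95 to 81, counting error only). The same held for 25.7% of the narrower shared regions and for 13.2% of the regions called in fewer than 4 libraries. A start lay inside 408 broad regions (72.5%), against 15.0% of narrower shared regions, although a wider interval holds more starts by its size alone. With starts of the promoter table alone, 62.3% of broad regions and 18.9% of narrower shared regions were within 1 kb. Another 92 broad regions (16.3%) lay inside a gene away from its start and 34 (6.04%) lay outside genes. These places were 48.2% and 26.1% of the narrower shared regions. The share at starts grew with width up to the limit of the rule, from 14.7% under 200 bp to 75.4% at 800 to 999 bp, and was 78.6%, 73.3% and 82.1% in the 3 classes above it.

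**Figure D1:**
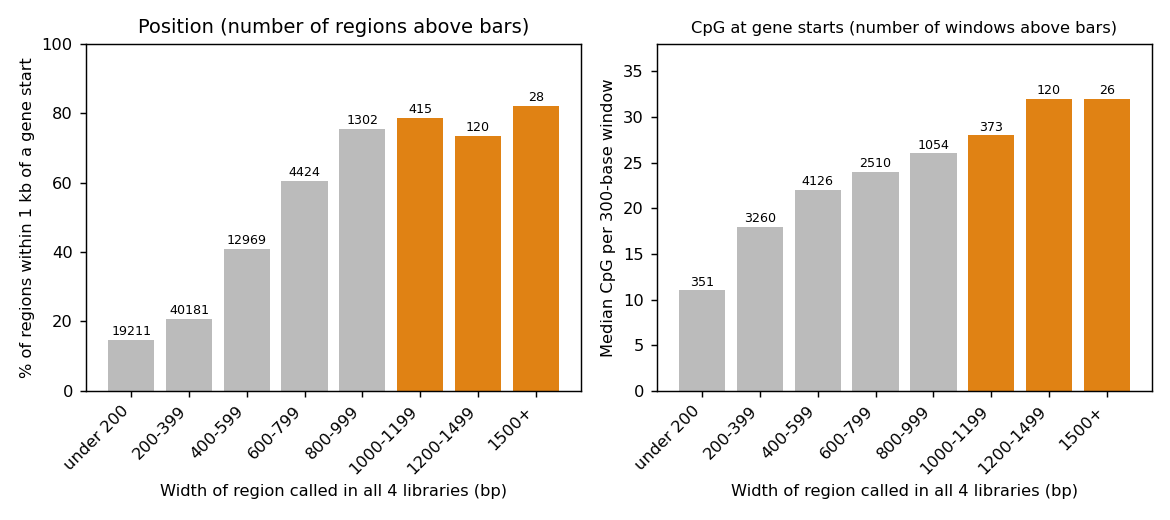
Left, percentage of shared regions within 1 kb of a gene start by width class in bp, with the number of regions above each bar. Right, median number of CpG in the 300-base windows of gene starts held by regions of each class, with the number of windows above each bar. Orange bars are the broad regions and grey bars the narrower ones. The share at starts climbs from 14.7% to 75.4% below 1000 bp and stays between 73.3% and 82.1% above it, and the CpG median climbs from 11 to 32.

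The starts held by broad regions were rich in CpG. In the 519 RefSeq windows with starts inside broad regions, from 427 genes, the median GC content was 68% and the median number of CpG was 29. In the 11301 windows with starts in narrower shared regions the medians were 61.7% and 21 CpG. In the 20799 windows with no shared region at the start they were 48.7% and 4 CpG. The number of CpG per window grew with the width of the region, from a median of 11 in regions under 200 bp to 32 in those of at least 1200 but under 1500 bp, so the broad regions lie at the top of a gradient. A region that holds several starts gives several windows, so windows are not independent.

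Motifs made of G and C were frequent in these windows and TATAAA was rare. The GC box GGGCGG, bound by Sp-family factors, was in 74.2% of windows in broad regions, 67.2% in narrower shared regions, 17.9% with no shared region and 35.9% of all windows. TATAAA, the core promoter element, was in 4.62% of windows in broad regions, 6.01% in narrower shared regions, 18.0% with no shared region and 13.7% of all. CCGGAAG, a site of ETS-family factors, was in 16.0% of windows in broad regions, 19.9% in narrower shared regions and 8.92% of all. CCAAT, bound by NF-Y, was in 29.1%, against 39.7% in narrower shared regions and 37.6% of all windows. TGCTGA, a half-site of the MAF recognition element, was in 8.48%, against 15.3% in narrower shared regions and 19.5% of all windows. The cyclic AMP response element TGACGTCA was in 4.43%, against 3.53% and 1.80%, and the E-box CACGTG in 11.0%, against 10.9% and 7.20%. TGTGGTT, a RUNX site, was in 2.31%, against 5.29% of all windows. CTTTGA, a TCF1 and LEF1 site, was in 9.25%, against 11.7% in narrower shared regions and 16.0% of all windows. Each motif was searched on both strands. A match is a run of letters, not a bound site, and the share of a motif moves with the base composition of the windows.

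Several broad regions held starts of more than a single gene. Of the 332 regions that held a start of the promoter table, 238 (71.7%) held that of 1 gene and 70 (21.1%) held starts of genes that run apart from each other. Starts of several genes lay in 94 of these regions (28.3%), against 12.6% of the 9276 narrower shared regions with such a start. A wider interval holds more starts by its size alone, so the rule favours this order. Around the 207 regions with just 1 start, the median reach was 638 bp downstream and 497 bp upstream of it. In 124 of them (59.9%) the region reached farther into the gene than ahead of it.

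Of the 10 widest regions, 1 lay on a nuclear copy of mitochondrial DNA, 2 at histone genes, 5 at other genes and 2 had no gene within 1 kb. At 3290 bp, the widest lay at chr1:24612858-24616147 on the pseudogenes Gm10222 and Gm10925, with 3288 and 3288 bp covered in the KO libraries, against 3284 and 3278 bp in the WT libraries. These pseudogenes lie in that copy, so fragments of nuclear or mitochondrial origin can align there. Its summit fold enrichment was 4.20 and 3.87 in the KO libraries, against 4.31 and 3.93 in the WT libraries, below the median of broad regions. Whether the reads came from mitochondria was not tested. The next, the 2043 bp region at H2ac18 and H3c14, which encode the core histones H2A and H3, was covered over 1967 and 1842 bp in the KO libraries, against 1811 and 1791 bp in the WT libraries.

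Inside Nr3c1, which encodes the glucocorticoid receptor, a region of 2016 bp (chr18:39489744-39491759) was covered over 1696 and 1856 bp in the KO libraries, against 1820 and 1968 bp in the WT libraries. Crlf2, which encodes a chain of the receptor for the cytokine TSLP, had a region of 1980 bp at an end of the gene (chr5:109556783-109558762). It was covered over 1980 and 1906 bp in the KO libraries, against 1955 and 1935 bp in the WT libraries, each time by a single peak. Stim1, the calcium sensor of the endoplasmic reticulum that opens store-operated channels after antigen receptor signals, had a region of 1763 bp at its start (chr7:102266356-102268118). Peaks covered 1763 and 1475 bp of it in the KO libraries, against 1406 and 1386 bp in the WT libraries. The KO values lay above the WT values there, while at Nr3c1 and Crlf2 the covered bp overlapped. By percentile of −log10 q the order at Stim1 was the opposite, with 94.8 and 95.5 in the KO libraries, against 96.5 and 96.7 in the WT libraries. Crlf2 also ranked lower in KO, at 95.5 and 95.3, against 96.2 and 96.0 in WT. Rev3l, the catalytic subunit of DNA polymerase ζ, and the kinase gene Cdk17 had regions of 1769 and 1743 bp. The Cdk17 region had a core of only 517 bp and was made of several peaks in each library. The remaining regions among the 10 widest were the 1704 bp region at H3c15 and H2ac19 and regions of 1692 and 1666 bp with no gene within 1 kb.

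**Figure D2:**
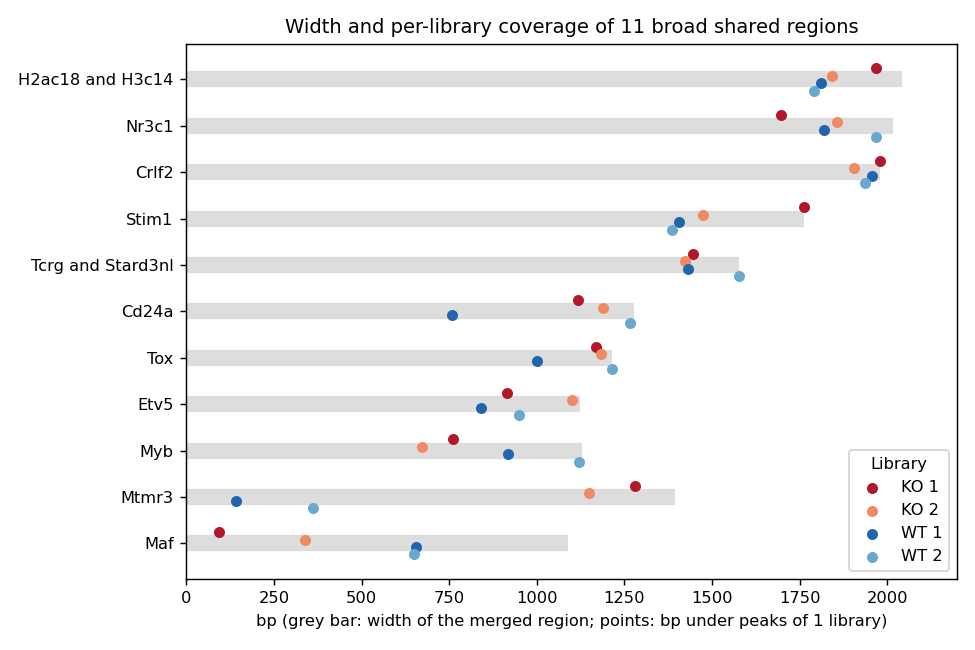
Width and coverage in bp of 11 broad regions named by gene. Grey bars give the width of the merged region and points the bp under peaks of 1 library, with KO libraries in red tones and WT libraries in blue tones. At Crlf2 all 4 points sit near the full width of 1980 bp, while at Mtmr3 the WT points (143 and 361 bp) and at Maf the KO points (94 and 339 bp) fall far short of it.

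Broad regions at antigen receptor genes lay in Cd247, beside Tcrg and in Igh. Cd247, which encodes the signalling chain CD3ζ, was 1 of 9 protein-coding genes with 2 broad regions (no gene had more), and 1 of 11 genes of the γδ TCR and CD3 list with any. Over all genes, 1.5% of 49554 had a broad region overlapping the gene or within 1 kb, and 2.76% of the 21631 protein-coding genes did. With the region within 1 kb of the gene start, these shares were 1.23% and 2.23%. Its first region, chr1:165827836-165829047 (1212 bp), was covered over 1054 and 883 bp in the KO libraries, against 926 and 1091 bp in the WT libraries. The second, chr1:165844572-165845696 (1125 bp), was covered over 1086 and 1087 bp in the KO libraries, against 1125 and 1117 bp in the WT libraries. Both KO libraries covered fewer bases of the second region than either WT library, with a KO minus WT difference of -34.5 bp between the means.
A region of 1578 bp (chr13:19356080-19357657) lay within 1 kb of both Tcrg, the γ chain locus, and Stard3nl, which encodes a lipid transfer protein and is 19 bp away. It was covered over 1446 and 1424 bp in the KO libraries, against 1430 and 1577 bp in the WT libraries. Another of 1266 bp lay inside Igh, the immunoglobulin heavy chain locus, at chr12:113424304-113425569, and its −log10 q was 443 and 342 in the KO libraries, against 175 and 275 in the WT libraries. Cd3e and Trdc, the constant gene of the δ chain, had widest shared regions of 656 and 298 bp, and that of Cd3d was 910 bp.

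Cd24a, whose product CD24 was a marker used to sort these cells, was 1 of 28 genes for T cell surface and antigen receptor signalling with a broad region, a share of 3.57%, near the 2.76% of protein-coding genes. It was 1278 bp wide (chr10:43578700-43579977), covered over 1116 and 1189 bp in the KO libraries, against 759 and 1265 bp in the WT libraries. Its −log10 q was 27.9 and 27.4 in the KO libraries, against 32.0 and 54.8 in the WT libraries.

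Of 30 transcription factors of the T lineage and early thymocyte, 6 (20%) had a broad region at the gene or within 1 kb: Lef1, Elf1, Ikzf3, Myb, Tox and Bach2. The share over protein-coding genes was 2.76%. These factors had a median of 12.5 shared regions per gene, against 1 for protein-coding genes. Without WT library 2, 3 of the 30 had a broad region. The share over all genes, not only protein-coding ones, was then 0.995%, against 1.5% with all 4 libraries. Myb had its region at its promoter (chr10:21160664-21161792, 1129 bp), covered over 760 and 673 bp in the KO libraries, against 919 and 1121 bp in the WT libraries. Both KO libraries covered less of it than either WT library. Its −log10 q overlapped between genotypes, at 50.7 and 71.5 in the KO libraries, against 39.3 and 60.3 in the WT libraries. As a percentile of all peaks it was higher in KO, with 87.5 and 88.8 in the KO libraries, against 84.2 and 84.5 in the WT libraries. At an end of Tox, which encodes a factor needed for T cell lineage choice in the thymus, a region of 1213 bp (chr4:6990451-6991663) was covered over 1168 and 1182 bp in the KO libraries, against 1000 and 1213 bp in the WT libraries. The Elf1 region (chr14:79481008-79482179, 1172 bp) also held the start of Wbp4, a splicing factor gene, with a tRNA gene within 1 kb.
Lef1, the partner of TCF1, had its region inside the gene (chr3:131207981-131208987, 1007 bp), with a −log10 q of 144 and 195 in the KO libraries, against 132 and 202 in the WT libraries. Inside Ikzf3, which encodes the Ikaros-family factor Aiolos, the region of 1123 bp was broad in WT library 2 alone, with 356 and 540 bp covered in the KO libraries, against 405 and 1051 bp in the WT libraries. The region inside Bach2, a repressor of effector genes, had a core of 2 bp, so its width came from side by side peaks. Tcf7, which encodes TCF1, had 8 shared regions, the widest of 639 bp.

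In the type 17 list, 3 of 27 genes had a broad region (11.1%, with 2.76% over protein-coding genes): Rora, Etv5 and Maf. Without KO library 2, 1 of the 27 had one, and the share over all genes was 1.16%, against 1.5% with all 4 libraries. Rora, which encodes the nuclear receptor RORα, had 2 such regions among 45 shared ones. In the first (chr9:69226573-69227664, 1092 bp) the −log10 q was 79.0 and 105 in the KO libraries, against 97.3 and 177 in the WT libraries. The second (chr9:69289433-69290459, 1027 bp) had values of 85.3 and 93.8 in the KO libraries, against 80.1 and 131 in the WT libraries. For Etv5, an ETS factor of γδ T cells, the region of 1123 bp (chr16:22395682-22396804) was covered over 914 and 1099 bp in the KO libraries, against 841 and 949 bp in the WT libraries. Of the other 24 genes of the list, 20 had only narrower shared regions and 4, among them Il17a, had none. The widest shared region of a gene was 793 bp at Sox4, 385 bp at Sox13 (both SOX-family factors), 603 bp at Blk (a Src-family kinase), 571 bp at Zbtb16 (which encodes PLZF) and 381 bp at Il17f.

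Counts in the next lists stand beside a share of 2.76% over protein-coding genes. Broad regions were found at 1 of 24 genes induced by T cell receptor signals, the immediate early gene Egr1, whose region on chromosome 18 was 1320 bp wide. It was covered over 1320 and 1163 bp in the KO libraries, against 1170 and 1287 bp in the WT libraries. No gene had one among 25 of the type 1 program, 22 cytokine receptor and STAT genes, or 15 genes of thymic migration and adhesion. Klf2, a factor of thymic exit, missed the limit with 988 bp. The same count of 0 was found for 12 B cell, 14 myeloid, 12 erythroid and megakaryocyte and 15 thymic stroma genes, for 24 genes of other tissues and for 35 developmental regulators with CpG island promoters. The developmental regulators had shared regions at 18 of 35 genes, with a median widest region of 308.5 bp.

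Among the lists of general cell functions, each but the ribosomal one had at least 1 gene with a broad region. Of 14 genes of apoptosis and survival, 4 (28.6%, with 2.76% over protein-coding genes) had a broad region. Without KO library 1, 2 did, and the share over all genes was 1.279%, against 1.5% with all 4 libraries. The 4 genes included Bcl2 (an inhibitor of apoptosis), Bcl2l11 (which encodes its antagonist Bim) and Mdm2, whose product targets p53 for degradation. The Bcl2 region at the gene start (chr1:106713803-106714838, 1036 bp) was covered over 989 and 703 bp in the KO libraries, against 784 and 748 bp in the WT libraries, and the genotypes overlapped. Of 20 housekeeping genes 3 had one (Ppia, Hsp90ab1 and Ywhaz), of 25 chromatin regulators 2 (among them the histone deacetylase gene Hdac7), and of 20 cell cycle genes 1 (Rb1). These shares were 15%, 8% and 5%, with 2.76% over protein-coding genes. None of 20 ribosomal protein genes did, although all 20 had a shared region, with a median widest region of 511 bp. Across the 15488 protein-coding genes with a shared region, the median of the widest was 505 bp.

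The highest median width among the lists was that of histone genes, a list added after the widest regions were seen. Of 68 such genes, 19 (27.9%, with 2.76% over protein-coding genes) lay at 9 broad regions, and the median widest region per gene was 845 bp. Besides the regions on chromosome 3, H2ac6 and H2bc4 shared a region of 1413 bp (chr13:23683480-23684892), where −log10 q was 237 and 272 in the KO libraries, against 220 and 321 in the WT libraries. H2ac15 and H2bc15, which run apart from each other, shared a region of 1043 bp (chr13:21753452-21754494) covered over 1013 and 921 bp in the KO libraries, against 879 and 1042 bp in the WT libraries. Some histone genes are closely similar copies, so reads could be split between such copies. Genes for tRNA, also short and clustered, had 16 of 408 (3.92%) at 9 broad regions. At chr1:171101800-171103424 a region of 1625 bp held 4 tRNA genes, with 1421 and 1059 bp covered in the KO libraries, against 971 and 1539 bp in the WT libraries. Long non-coding RNA genes had a broad region in 0.811% of 12697.

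**Figure D3:**
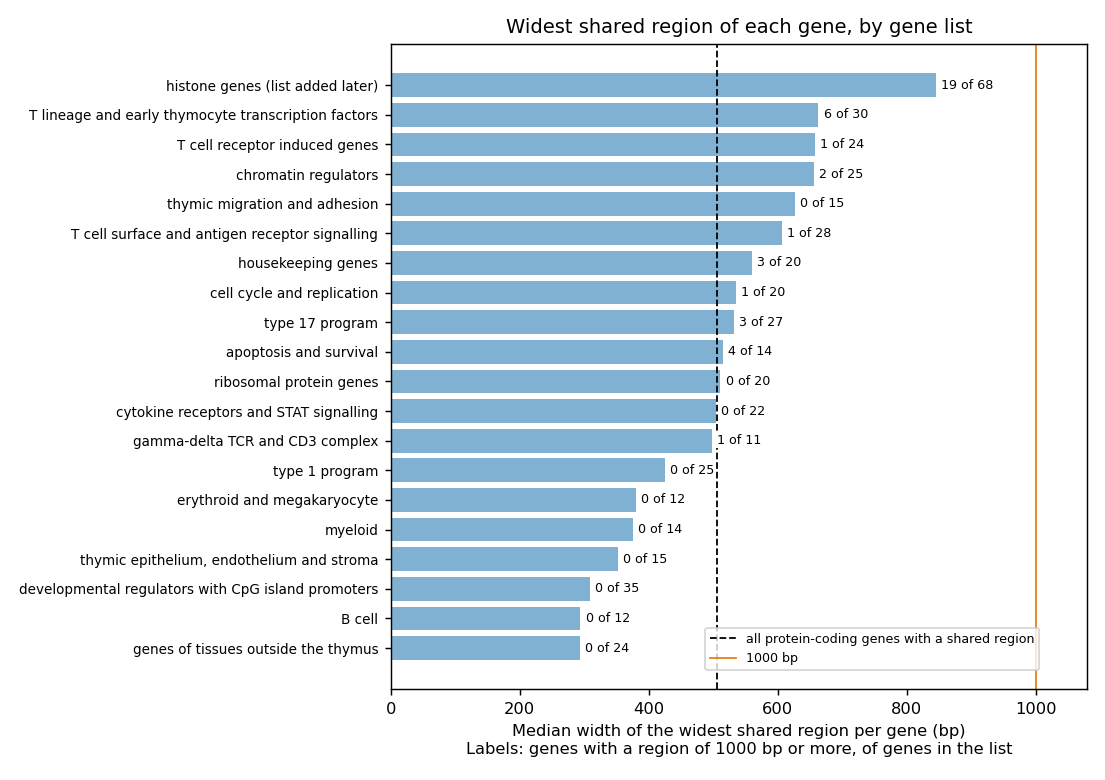
Median width in bp of the widest shared region per gene for each gene list, over genes with any shared region. The label gives the genes with a region of 1000 bp or more out of all genes of the list, the dashed line the median over protein-coding genes (505 bp), and the orange line 1000 bp. Histone genes reach 845 bp and T lineage factors 663 bp, while genes of other tissues stand at 293 bp.

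A few regions outside the lists were picked by gene name after their values were seen, and stand for no group. Rasgrp1, which activates Ras after T cell receptor signals, had a region of 1155 bp at its start (chr2:117342506-117343660), covered over 1123 and 1022 bp in the KO libraries, against 953 and 1079 bp in the WT libraries. Inpp5d, which encodes the lipid phosphatase SHIP1, had a region of 1028 bp inside the gene, covered over 938 and 905 bp in the KO libraries, against 923 and 945 bp in the WT libraries. Cd47, the marker that inhibits phagocytosis, had 1108 bp and Pik3r1, a regulatory subunit of PI3 kinase, 1296 bp. Regions at the transcription factor genes Sp1, Jund and Ctcf were 1044, 1033 and 1055 bp wide.

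The difference between genotypes in the overall width and rank of the broad regions was smaller than the spread between libraries. The median covered width was 950 ± 28.3 bp in KO and 945 ± 97.6 bp in WT (SD, n = 2 each), a difference of 5 bp that is given as a description, since the rule used width. The median percentile of −log10 q among all peaks of the library was 88.4 ± 1.63 in KO and 87.2 ± 1.82 in WT (SD, n = 2 each), a difference of 1.11 (exact two-sided permutation test, p = 0.667). With 2 libraries against 2 the smallest p that this test allows is 0.333, so no difference could pass 0.05.

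The libraries of the genotypes did not overlap in some single regions, at shares near those over all shared regions. By percentile among all peaks, both KO libraries ranked above both WT libraries in 127 broad regions (22.6%), with a background of 23.9% of all 78650 shared regions. Both ranked below in 66 (11.7%), with a background of 13%. With a library left out the condition is looser, since 1 library then stands for a genotype, and counts grow for that reason. Without KO library 2 the first count was 211 (48.1% of the regions then kept, against 44.1% of all shared regions), and without WT library 2 it was 223 (60.9%, against 59.7%). The second count was 155 without KO library 1 (32.6%, against 27.6%) and 187 without WT library 1 (37.6%, against 39.5%).
Percentiles also depend on how many weak peaks a library lists. When regions were ranked among the shared regions alone, a setting added after the data were seen, KO was above WT in 99 (17.6%, background 21%) and below in 119 (21.1%, background 20.7%). Which direction had more regions thus turned with the ranking. By covered bp, both KO libraries were above both WT libraries in 76 regions (13.5%, background 17.2%) and below in 91 (16.2%, background 12.5%).

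**Figure D4:**
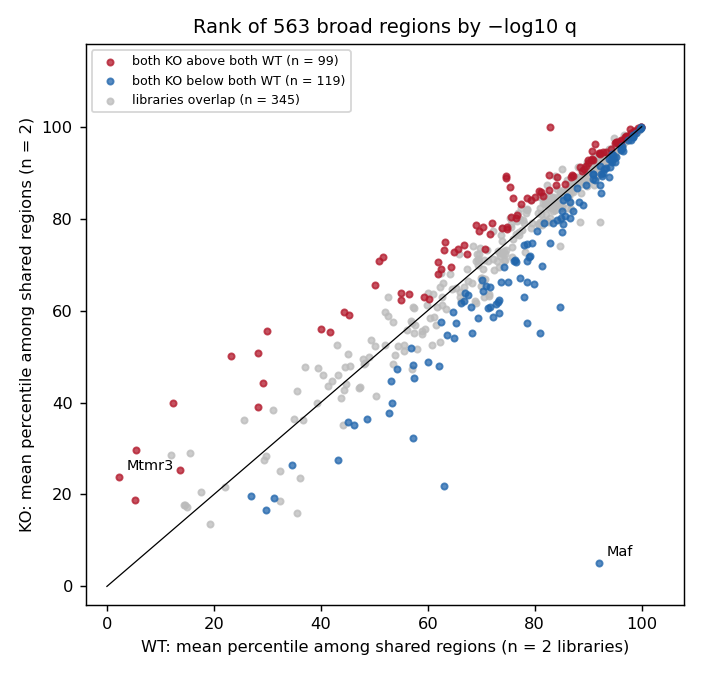
Mean percentile of −log10 q among shared regions for the 563 broad regions, KO on the vertical and WT on the horizontal axis (2 libraries each), with the line of equality. Red points are the 99 regions with both KO libraries above both WT libraries, blue points the 119 with both below, and grey points those that overlap. Most points follow the line, and the Maf region sits far below it.

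Of the broad regions with no overlap between genotypes, the region beside Maf had the greatest rank difference in favour of WT by both rankings. This region, 828 bp from the nearer end of the gene at chr8:115707722-115708810 (1089 bp), had the −log10 q values given for the check of the labels. They stood at the 5.0 and 29.6 percentiles of peaks in the KO libraries, against 94.6 and 94.7 in the WT libraries. Covered bp were 94 and 339 in the KO libraries, against 654 and 649 in the WT libraries. The peaks of the genotypes lay almost wholly beside each other. In the KO libraries they spanned bases 115708680 to 115708773 and 115708472 to 115708810, against a last base of 115708425 in WT library 1 and 115708481 in WT library 2. The region therefore passed the rule through peaks at different places, and no base of it was open in all 4 libraries.

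Of the other 4 regions with the lowest KO ranks relative to WT, 3 had no gene within 1 kb. On chromosome 4 at chr4:34435543-34436606, −log10 q was 10.1 and 8.41 in the KO libraries, against 21.1 and 39.3 in the WT libraries. Another, on chromosome 2 at chr2:75118926-75119953, had 24.2 and 24.3 in the KO libraries, against 39.5 and 84.9 in the WT libraries. The 1666 bp region at chr9:124256323-124257988 had 41.1 and 21.7 in the KO libraries, against 81.2 and 69.5 in the WT libraries. The last lay at Gm3318 on chromosome 10, and its libraries overlapped when ranked among shared regions.

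By percentile among all peaks, the 5 regions with the greatest rank difference in favour of KO lay inside or beside protein-coding genes. The region of 1395 bp inside Mtmr3, a phosphoinositide phosphatase (chr11:4572729-4574123), was covered over 1280 and 1148 bp in the KO libraries, against 143 and 361 bp in the WT libraries. Its −log10 q was 10.9 and 8.94 in the KO libraries, against 2.15 and 3.55 in the WT libraries, which were the 56.5 and 39.3 percentiles of peaks in the KO libraries, against 6.92 and 16.1 in the WT libraries. In Nme9 and Armc8 the region of 1225 bp was covered over 1143 and 907 bp in the KO libraries, against 200 and 237 bp in the WT libraries. Both regions reached 1000 bp through the peaks of the KO libraries, so the choice by width favoured this order of the covered bp. Kdelr2, the receptor that returns proteins to the endoplasmic reticulum, Stam2, an endosomal sorting adaptor, and Arhgap25, a Rac regulator, completed the 5. When ranked among shared regions alone the order changed: the KO minus WT difference was 13.5 percentiles at Stam2 and 22.6 at a region inside Fndc3a, above the 21.6 at Mtmr3. The covered bp of the genotypes overlapped at Kdelr2, Stam2 and Arhgap25, but not at Mtmr3 or at Nme9 and Armc8.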

How the data were processed

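Omni-ATAC libraries of 2 KO and 2 WT samples were used, with 1 deposited peak list each. Tools listed, without roles, by the submitters' processing notes were MACS2 2.1.1, Bowtie2 2.3.4.1 and deepTools 3.1.2, besides bedtools, Picard, cutadapt and Trim Galore, with mm10 and GRCm38 as builds. For duplicates, the Tn5 shift and peak settings, steps were not given in the sources used here. Each library had peaks of its own. Deposited peaks carry a whole-number score, a fold enrichment (a linear ratio to local background), and the −log10 p and −log10 q of their summits. The authors computed these within a library, and they were used only to describe, rank and filter. The deposited lists also give the summit's distance from the peak start as another column, which entered no result. The lists hold no read totals, so depth is unknown and only the numbers of peaks are given; the interval of a share covers counting error over regions only.

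Peaks on chromosomes 1 to 19 and X were merged with Python 3.11.15, pandas 2.3.3 and numpy 2.4.6; merging was tested on simulated data against bedtools 2.31.1. A region's percentile is that of its highest −log10 q within the library. Gene starts came from RefSeq windows of GRCm38.p6 for 26794 of 49554 genes, and both gene ends stood for the other 22760. No exon positions were used. Groups came from the sample titles. Median percentiles per library were compared by an exact permutation test (the same test was planned and run for covered width, and is left out as support because the rule used width), and counts of regions and genes were given beside their background with no test. The members and the 19 gene lists were chosen with earlier results of these data known; the histone list was added after values were seen. Named genes were those at the 10 widest regions, the genes with 2 regions, up to 3 per list, the 5 highest and lowest rank differences, the 5 smallest cores, regions next to the limit, and 10 fixed genes; a few of them are not reported here. Alternatives changed the width limit, merging, peak strength, peak number, libraries, gene windows and ranking.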

Additional observations from a re-analysis of the deposited data

How the results depend on the processing

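Over 103 alternatives of the results that answer a comparison, 54 counted as unchanged, 37 as moved and 12 as reversed. A difference between genotypes counted as unchanged when it kept its sign, whatever its size. A share did so within its 95% interval, and a count within 1.5 times. The 12 reversals turned a difference between genotypes that was itself within the spread of the libraries. The cause of each change was not tested beyond the setting's own construction. At width limits of 800, 1500 and 2000 bp and with a core of at least 1000 bp, the rule kept 1865, 28, 3 and 57 regions in place of 563, and 850 when peaks up to 100 bp apart were merged. The share within 1 kb of a gene start was 82.14% at 1500 bp, 66.67% at 2000 bp, 70.18% with the core and 62.34% with the promoter table alone. The share of all genes was 4.649% at 800 bp, 0.08677% at 1500 bp, 0.01009% at 2000 bp and 0.1534% with the core. It was 2.226% with the 100 bp gap and 1.324% when each library covered at least 50% of the region. For regions at gene starts it was 1.231%, and for the nearest gene 1.118%.

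The difference in median covered width (5 bp) was -2.5 bp at 800 bp, -20 bp with the core, -5 bp for peaks with −log10 q of at least 5, -10 bp with equal numbers of peaks and -1 bp with at least 50% covered. The difference in median percentile (1.112) was -1.117 at 1500 bp, -0.4294 with the core, -0.07277 with equal numbers of peaks and -0.8159 for percentiles of fold enrichment. Regions with KO above WT numbered 403 of 1865, 7 of 28, 2 of 3 and 16 of 57 at 800, 1500 and 2000 bp and with the core. Those with KO below WT numbered 240, 5, 0 and 6 in the same 4 settings. The shares over all 78650 shared regions stayed 23.9% and 13% in these settings. KO was above WT in 191 of 850 with the gap, and below in 113 of 542 with equal numbers of peaks. No share over all shared regions was computed for those 2 settings. When ranked among shared regions, KO was below WT in 119 (background 20.7%).

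Leaving out each library in turn gave 366 to 498 regions, 76.54 to 78.42% at gene starts, 0.9949 to 1.318% of genes, a width difference of -59.5 to 76.25 bp, a percentile difference of -0.125 to 1.763, 138 to 223 regions with KO above WT and 58 to 187 with KO below. The 138 and 223 were 27.7% and 60.9% of the regions kept, against 29.4% and 59.7% of all shared regions. The 58 and 187 were 15.8% and 37.6%, against 16.9% and 39.5%. The lowest number of regions came without WT library 2. With the replicate number as a block the differences were 5 bp and 1.112, the second with an exact permutation p of 1, where 0.5 is the smallest possible. This block changed no call. The numbers were not taken to pair the samples, since the labels name no shared pool. Across the 563 broad regions, the deviations of same-numbered libraries correlated at 0.0932 for covered bp and -0.0724 for percentiles. Regions are not replicates of the libraries, so with 2 pairs these values cannot show whether samples shared a pool. Widths rest on the peak caller's thresholds and on depth, which cannot be read from these lists.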

Other observations

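A region of 1148 bp at the start of B3galt6 and Sdf4 (chr4:155992306-155993453), named after its values were seen, had a −log10 q of 713 and 430 in the KO libraries, against 38.6 and 106 in the WT libraries. B3galt6 encodes an enzyme of proteoglycan synthesis and Sdf4 a calcium-binding protein of the Golgi. The order was the opposite for the bases covered, which were fewer in both KO libraries, at 879 and 867 bp in the KO libraries, against 955 and 1148 bp in the WT libraries. Neither difference was tested.

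Chromosome X held 4 of the 563 broad regions, at Prkx, Gnl3l, Fam120c and Huwe1, which was 0.290% of its 1378 shared regions. The share was 0.716% over all chromosomes used. It was highest on chromosomes 3 (1.03%) and 17 (1.01%), and 0.480% on chromosomes 1 and 15. A median of 1 other shared region lay within 10 kb of a broad region, against 2 for narrower shared regions. The medians were also 1 and 2 when both were limited to regions at gene starts. Merging joins several peaks into a broad region, so the rule itself can take up near neighbours.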
